A study of Canis lupus familiaris with 23 samples.

Results

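Organoids grown from canine interfollicular epidermis were compared with organoids grown from canine hair follicles, all cultured with a Tgf-beta inhibitor. The comparison holds 7 of the 23 libraries of the series and its members are defined by the sample titles, not by measured values. Early interfollicular organoids (passages 0 to 1) gave 1 library and early follicle organoids gave 3. Later interfollicular organoids (mid-term in culture, passages 3 to 6) gave 1 library and later follicle organoids gave 2. All 7 were bulk organoid cells collected on day 7 of culture and sorted before RNA isolation, with no sort marker named. The labels give neither the age nor the breed of the dogs, and do not say whether replicates came from different dogs or cultures. All 23 libraries of the series were fitted together in 12 groups, with tissue and other cultures among them. The p-values therefore measure only the spread between libraries within all these groups, not within the 7 compared libraries alone. Neither interfollicular group has a replicate, so its p-values assume that it varies like the replicated groups. Tissue of the same origins, with 2 libraries of hair follicles and 2 of interfollicular epidermis, was used beside the organoids as a reference that shares no library with them. RNA was measured by CEL-seq2, a barcoded method that reads transcripts near their 3′ ends.

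The interfollicular epidermis is the sheet of skin between hair follicles. Its basal keratinocytes divide on the basement membrane and then differentiate upwards into spinous, granular and cornified layers. The follicle holds its own keratinocyte stem cells, an outer root sheath continuous with the epidermis, and the inner root sheath and hair shaft, which are built from hair keratins and keratin-associated proteins. KLF4 is a zinc finger transcription factor needed for the epidermal barrier. DLL1 is a Notch ligand, through which a keratinocyte signals to its neighbours. HBEGF is a ligand of the EGF receptor and acts in keratinocyte migration and proliferation.

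The libraries differed in depth, and in overall profile the later interfollicular one stood apart. Total counts were 471885 in the early and 219822 in the later interfollicular library, against 1090699 to 4792471 in the 5 follicle libraries. Levels are counts per 1e6 counts of a library after scaling (CPM), and the limit that a count of 0 allows, 3 counts, was 18.2 CPM in the later interfollicular library. Correlations across genes of log2(CPM + 5) were 0.914 to 0.978 among follicle libraries, 0.907 to 0.932 between these and the early interfollicular library, and 0.748 to 0.779 between these and the later one. The early and later interfollicular libraries correlated at 0.821, and follicle early replicate 1 at 0.914 to 0.947 with the other follicle libraries. Basal keratinocyte RNA was abundant in all 7, with KRT5 between 15260 and 40820 CPM and KRT14 between 11170 and 30780 CPM. SOX9 and LGR5, markers of follicle stem cells, lay at 0 to 3.39 CPM and 0 to 1.94 CPM. CD34, another gene of that kind, lay at 0 to 6.07 CPM, and LGR6 had 0 counts in both interfollicular libraries. LHX2 was at 0 in the early and 60.6 CPM in the later one, beside follicle means of 6.73 and 2.49 CPM. KRT15 was abundant. It was at 1422 CPM in the early and 855 CPM in the later interfollicular library, beside follicle means of 1022 and 1426 CPM. The list of follicle stem cell and outer root sheath genes summed to 3455 and 3385 CPM, inside the follicle range of 3039 to 5002 CPM. Mitochondrially encoded genes took 5.35 to 26.9% of counts in follicle libraries, 8.12% in the early interfollicular library and 12.4% in the later one. Among follicle libraries, early replicate 1 had the most involucrin (IVL, 24320 CPM against 1675 to 4311 CPM in the other 4). In bulk libraries, fewer cells of a type and less RNA per cell cannot be told apart.

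Over both passage classes, most called genes were higher in interfollicular than in follicle organoids. Of 9888 genes tested, 578 (5.85%) were higher and 51 (0.516%) were lower at an adjusted p under 0.05, by edgeR's quasi-likelihood test with Benjamini-Hochberg adjustment. The median log2 difference of all genes tested was -0.32. The later library carried most of these calls. Without it, 54 genes were higher and 0 were lower, and 50 of the 629 calls remained. Of the 578 higher calls, 48 were not tested at all without it, since they passed the low-count filter only through that library. Of the 578 genes, 575 stood higher in the later than in the early interfollicular library, and 559 had a positive early difference, against 4084 of all 9888 genes. The pooled difference is the mean of the early and later ones, so being called already favours a positive early difference. These 578 genes took 37.1% of all counts in the later interfollicular library, 12.1% in the early one and 4.64 to 5.59% in the follicle libraries. Provisional locus names made up 26.6% of them, against 10.6% of all genes tested, and pseudogenes in the RefSeq list made up 9.86%, against 2.88%. For 49.1% of them both interfollicular libraries lay above all 21 other libraries of the series. This was so for 3.65% of all genes tested, but the 578 were called for high values in the interfollicular libraries. Whether these features have a technical source was not tested.

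KLF4 was higher in both interfollicular libraries. Its level was 194 CPM in the early interfollicular library and 655 CPM in the later one. The early follicle libraries held 52.9, 63.3 and 65.9 CPM, and the later ones 34.2 and 48.4 CPM. Every follicle value lay below both interfollicular values. The pooled log2 difference was 2.83 ± 0.28 (SE, adjusted p = 3.95e-07, edgeR). Within passage it was 1.67 ± 0.37 early (adjusted p = 0.0387, edgeR) and 3.99 ± 0.42 later (adjusted p = 1.23e-06, edgeR). The change between passages, 2.32 ± 0.60, missed the threshold (adjusted p = 0.06, edgeR). KLF4 also passed the test in tissue, with 112 and 125 CPM in interfollicular epidermis against 35.7 and 34.8 CPM in hair follicles (log2 1.73 ± 0.39, adjusted p = 0.0155, edgeR). The pooled call held under all 20 alternative settings, including without the later interfollicular library (adjusted p up to 0.0394, edgeR). The early call was lost under 8 of 18, among them leaving out any of the 3 early follicle libraries, with an adjusted p of at most 0.112.

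DLL1 was higher in the pooled test, on a signal that came from the later library. It passed the low-count filter only through that library and was not tested without it, so its pooled call is a description of that library. It stood at 97.1 CPM (16 counts) in the later interfollicular library. The early one held 7.77 CPM (4 counts). Follicle libraries held 2.03, 5.23 and 3.22 CPM early and 1.49 and 4.03 CPM later. Both interfollicular values lay above all 5, although the early count had an exact 95% interval of 2.12 to 19.9 CPM, which covers counting error only. The log2 difference was 3.14 ± 0.75 pooled (adjusted p = 0.0128, edgeR), 1.13 ± 1.04 early (adjusted p = 0.908, edgeR) and 5.15 ± 0.94 later (adjusted p = 0.00103, edgeR). With the 7 libraries thinned to the same depth, the pooled adjusted p was 0.0646 (edgeR). In tissue DLL1 had 0 counts in both interfollicular libraries, whose totals were 328871 and 84391, and 2.65 and 2.53 CPM in the follicle ones, so no tissue difference was detectable at this depth.

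HBEGF was lower in both interfollicular libraries, with 56.3 CPM early (29 counts) and 18.2 CPM later (3 counts). Follicle libraries held 98.96, 93.5 and 94.7 CPM early and 120 and 81.6 CPM later. The 5 follicle values lay within a narrow band above both interfollicular ones. The later level was 0.18 of the later follicle mean, with a counting interval of 0.0371 to 0.526. The log2 difference was -1.62 ± 0.45 pooled (adjusted p = 0.0309, edgeR), -0.76 ± 0.48 early (adjusted p = 0.852, edgeR) and -2.47 ± 0.75 later (adjusted p = 0.0425, edgeR). This call was the least firm of the 3 genes. It was lost under 9 of 20 settings, among them DESeq2, limma voom and the fit without the later interfollicular library, where the adjusted p reached 0.872. The direction held in all 20.

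**Figure D1:**
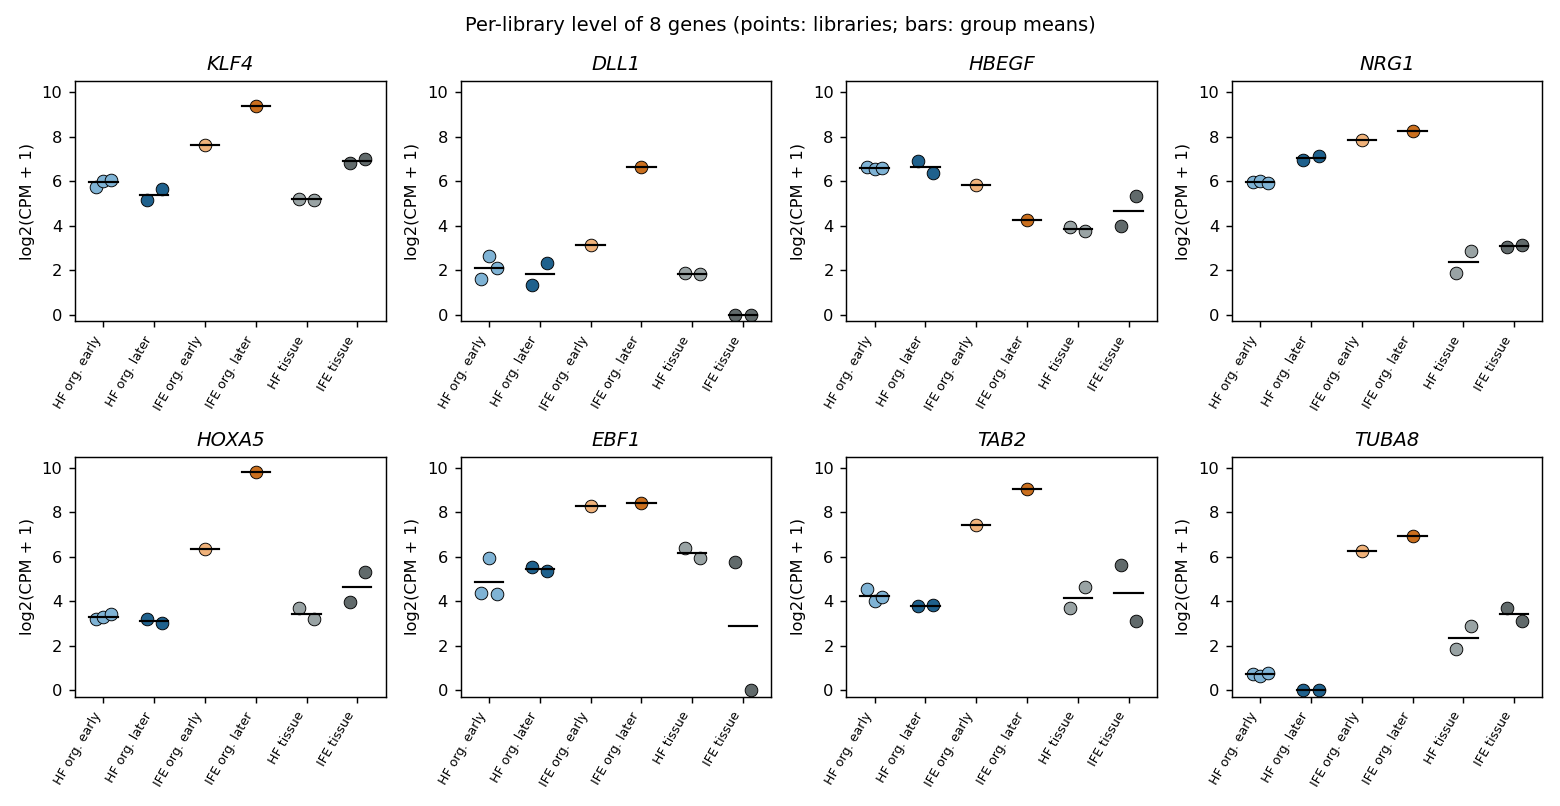
Level of 8 genes on a log2(CPM + 1) scale (vertical axis) in each organoid library with inhibitor and each tissue library (points), with group means as bars. HF is hair follicle, IFE is interfollicular epidermis, org. is organoid. A group with 1 library has its bar on the point. Both interfollicular organoid libraries lie above all 5 follicle organoid libraries for 7 of the genes and below them for HBEGF.

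The EGF family list, which holds ligands, receptors and genes that act downstream of them, had 22 tested members. Of these 1 was higher and 1 was lower in the pooled test, beside 5.85% and 0.516% of all genes. The median log2 difference was -0.23, against -0.32 for all genes. The higher member was NRG1, neuregulin 1, a ligand of the ERBB3 and ERBB4 receptors. Its level was 227 CPM early and 303 CPM later in interfollicular organoids. Early follicle libraries held 61.0, 63.9 and 60.1 CPM and later ones 123 and 139 CPM. Both interfollicular libraries thus lay above the follicle range within each passage class, while follicle organoids themselves held more NRG1 later than early. The log2 difference was 1.88 ± 0.41 early (adjusted p = 0.0338, edgeR), 1.21 ± 0.47 later (adjusted p = 0.155, edgeR) and 1.54 ± 0.32 pooled (adjusted p = 0.00244, edgeR). Unlike most calls, NRG1 did not need the later interfollicular library. Among the 20 settings the pooled call was lost only without the early one, with an adjusted p of 0.147 (edgeR). Its early call was lost under 5 of 18 settings, among them leaving out any early follicle library, with an adjusted p of at most 0.143. Amphiregulin, AREG, was at 116 CPM in the early and 12.1 CPM in the later interfollicular library, on either side of the follicle range of 19.2 to 68.4 CPM. The receptor EGFR was at 134 and 170 CPM against 149 to 294 CPM, and its pooled difference of -0.40 ± 0.33 missed the threshold (adjusted p = 0.601, edgeR).

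The Notch list had 2 of 22 tested members higher in the pooled test and 0 lower, with a median of -0.14, near the 5.85% of all genes called higher. Besides DLL1 this was NRARP, a feedback inhibitor that Notch signalling induces. NRARP stood at 44.7 CPM early and 115 CPM later, above the follicle range of 19.3 to 39.8 CPM, with a pooled log2 difference of 1.44 ± 0.34 (adjusted p = 0.00803, edgeR). Its early difference was 0.35 ± 0.45 (adjusted p = 0.933, edgeR), and its pooled call was lost without the later interfollicular library. The other ligands did not follow DLL1 as a group. JAG1 was at 35.0 CPM early and 72.8 CPM later against a follicle range of 69.5 to 127 CPM. JAG2 was at 64.1 CPM early and 297 CPM later against 42.7 to 116 CPM, and passed the test only in the later comparison (log2 1.92 ± 0.53, adjusted p = 0.0222, edgeR). That call was lost under 4 of 18 settings, with an adjusted p of at most 0.192. These were the 11 expansion libraries, the 7 libraries alone, library totals and the fit without follicle later replicate 2. The receptor NOTCH1, at 15.5 and 18.2 CPM, lay inside the follicle range of 7.46 to 25.2 CPM.

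Of 26 tested transcription factors of keratinocyte differentiation, 3 were higher and 0 were lower, with a median of -0.34, beside 5.85% of all genes called higher and an all-gene median of -0.32. KLF3, a relative of KLF4, stood at 148 CPM early and 516 CPM later against 39.3 to 111 CPM in follicle organoids (pooled log2 2.01 ± 0.32, adjusted p = 0.000159, edgeR). GRHL2, a grainyhead-like factor that activates epithelial junction genes, stood at 9.71 CPM (5 counts) and 60.7 CPM (10 counts) against 2.97 to 8.13 CPM (pooled log2 2.50 ± 0.66, adjusted p = 0.0215, edgeR). Neither was called early, with log2 differences of 0.67 ± 0.44 and 0.71 ± 0.89. Without the later interfollicular library only KLF4 among these 26 was called. OVOL1, a repressor at the exit from proliferation, lay on the other side. It was at 38.9 and 24.3 CPM, below the follicle range of 50.5 to 139 CPM, and missed the threshold (log2 -1.43 ± 0.45, adjusted p = 0.0673, edgeR). Klf-family member KLF5 was likewise below, at 204 and 97.1 CPM against 221 to 318 CPM.

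Of the 17 tested basal keratinocyte and hemidesmosome genes, 0 were called in the pooled test, with a median of -0.59. Of all genes 5.85% were higher and 0.516% lower, with a median of -0.32. KRT5, the basal type II keratin, was at 15260 CPM early and 16570 CPM later, below the follicle range of 18830 to 40820 CPM (log2 -1.06 ± 0.47, adjusted p = 0.262, edgeR). COL17A1, the transmembrane collagen of hemidesmosomes, was at 454 and 376 CPM, below 724 to 1281 CPM (log2 -1.24 ± 0.43, adjusted p = 0.104, edgeR). In tissue COL17A1 had the opposite sign and was called, with 596 and 397 CPM in interfollicular epidermis against 148 and 88.1 CPM in follicles (log2 2.09 ± 0.50, adjusted p = 0.0219, edgeR). TP63, the master factor of stratified epithelium, was at 40.8 and 42.5 CPM, inside the follicle range of 35.9 to 94.7 CPM. LAMA3, a laminin-332 chain, was the only member called in a passage class, lower in the later comparison (200 CPM against 621 and 621 CPM, log2 -1.63 ± 0.50, adjusted p = 0.0443, edgeR). That call was lost under 8 of 18 settings, among them equal depth and leaving out either later follicle library, with an adjusted p of at most 0.112.

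Keratinocyte differentiation and cornified envelope genes had 0 of 33 tested members called in either direction in the pooled test. Of all genes 5.85% were higher and 0.516% lower. KRT10, the early spinous keratin, was at 249 CPM in the early and 1177 CPM in the later interfollicular library, against 548 to 1380 CPM. In tissue KRT10 was far higher in interfollicular epidermis (8370 and 13280 CPM against 548 and 789 CPM, log2 4.02, adjusted p = 0.0021, edgeR). The organoid difference of KRT10 was -0.75 ± 0.56 (adjusted p = 0.563, edgeR). IVL was at 4902 and 2044 CPM, inside the follicle range of 1675 to 24320 CPM. The list median was -1.52 early and 0.40 later, so the passage classes had opposite signs. Follicle early replicate 1 weighed on the early value, since it held the highest IVL, LOR (1081 CPM) and SBSN (594 CPM). Without it the early median was -0.53. Wound keratins, alarmins and S100 proteins had 0 of 24 called, beside the same shares of all genes. KRT6A, a wound keratin, was at 6662 and 7061 CPM, below 9178 to 23260 CPM (log2 -1.13 ± 0.42, adjusted p = 0.149, edgeR).

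Of 25 tested S phase genes and 28 G2 and mitosis genes, 0 were called by edgeR pooled, early or later, with pooled medians of -0.19 and -0.32. Of all genes, 5.85% were higher and 0.516% lower pooled, 0.607% and 0% early, and 7.7% and 0.566% later. BIRC5, a mitotic survivin gene, was at 36.9 CPM early, beside a follicle range of 27.6 to 35.7 CPM, and at 0 in the later library, which leaves at least a 1.78-fold lower level than the later follicle mean. MKI67 was at 1.94 CPM or less in both interfollicular libraries and at 1.01 to 14.5 CPM in follicle ones, and was not tested.

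Cholesterol synthesis genes had a lower summed level in both interfollicular libraries, while 1 gene passed the test as lower, beside 0.516% of all genes. Of 21 tested members, 10 lay below all 5 follicle libraries in both interfollicular ones, which was so for 13.1% of all genes tested, and 0 lay above them (9.99% of all genes). The summed level of the list was 1541 to 1649 CPM in interfollicular and 2642 to 3243 CPM in follicle organoids. The median log2 difference was -0.83 early and -0.61 later, against -0.16 and -0.33 for all genes. The called member, CYP51A1, the lanosterol demethylase, stood at 95.2 CPM early and 66.7 CPM later, against 181, 195 and 201 CPM in early and 198 and 208 CPM in later follicle libraries (log2 -1.31 ± 0.37, adjusted p = 0.0355, edgeR). That call was lost under 10 of 20 settings, with an adjusted p of at most 0.755. FDPS, which makes farnesyl diphosphate, was at 530 and 576 CPM against 935 to 1213 CPM (adjusted p = 0.41, edgeR). SREBF2, which encodes the transcription factor that activates the pathway, was at 35.0 and 36.4 CPM against 53.4 to 106 CPM (adjusted p = 0.21, edgeR). In tissue the list had a median of -0.03. Under the alternative settings the list's pooled median lay between -0.92 and -0.60, the early one between -0.89 and -0.51 and the later one between -0.89 and -0.34, whose upper end is next to the all-gene later median. Sums below the follicle range were not particular to this list. Basal genes summed to 32188 and 47057 CPM against 48276 to 78568 CPM, and desmosome and tight junction genes to 5433 and 4629 CPM against 7060 to 13944 CPM. Glycolysis and hypoxia genes, of which 8 of 30 lay below all follicle libraries, summed to 17631 and 18363 CPM against 19147 to 33556 CPM.

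**Figure D2:**
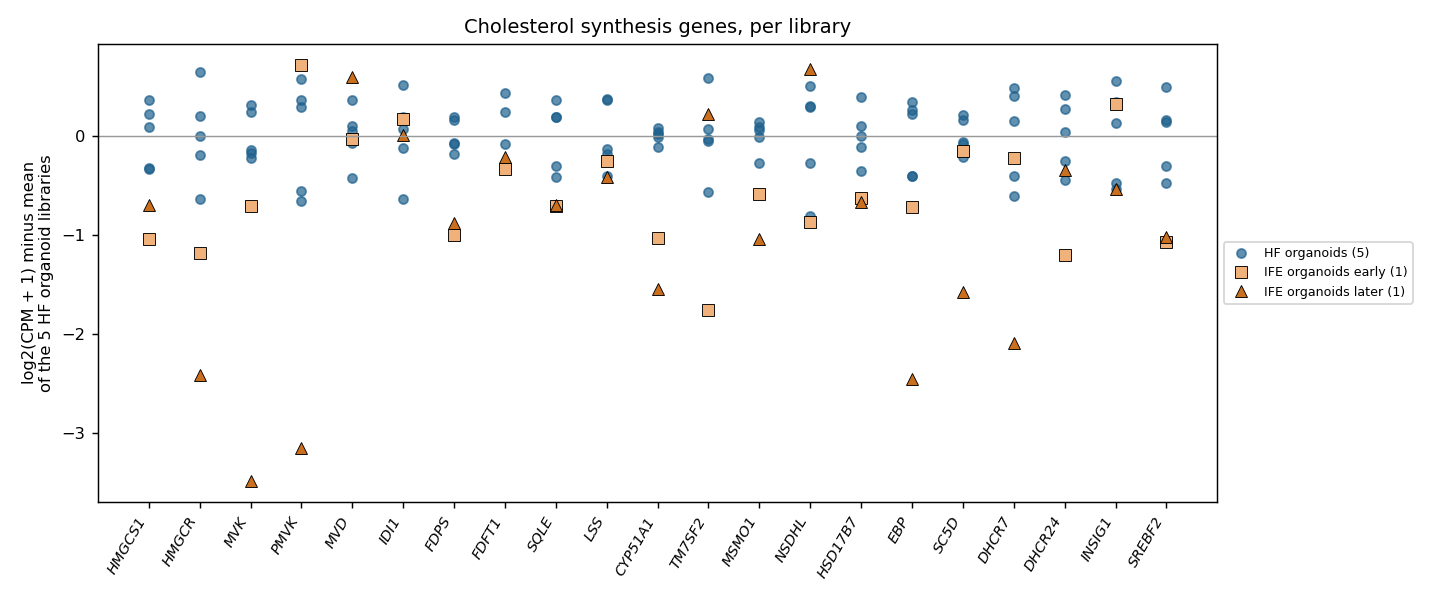
Each tested gene of cholesterol synthesis (horizontal axis) in the 5 follicle libraries (circles) and the early (square) and later (triangle) interfollicular library, as log2(CPM + 1) minus the mean of the 5 follicle libraries. For 10 of 21 genes both interfollicular symbols lie below all circles.

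Desmosome and tight junction genes had 0 of 22 called pooled, beside 5.85% of all genes higher and 0.516% lower. Of these 22, 7 lay below all follicle libraries, again beside 13.1% of all genes. JUP, plakoglobin, was at 1581 and 861 CPM against 1769 to 5182 CPM (log2 -1.22 ± 0.42, adjusted p = 0.104, edgeR). DSG1, a suprabasal desmoglein, was at 105 and 127 CPM against 184 to 297 CPM. The early median of this list was -1.01, and -0.41 without follicle early replicate 1.

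Among 19 tested transcription factors of regional identity, 2 were higher, HOXA5 and HOXB6, and 0 were lower, beside 5.85% and 0.516% of all genes. HOXB6 passed the low-count filter only through the later interfollicular library, and without that library 1 of 18 tested members, HOXA5, was higher. HOXA5 stood at 81.6 CPM early (42 counts) and 904 CPM later (149 counts). Follicle libraries held 8.13, 8.72 and 9.90 CPM early and 8.18 and 7.05 CPM later. The follicle values lay close together, and no other library of the series exceeded 39.0 CPM. The log2 difference was 3.16 ± 0.50 early (adjusted p = 0.00274, edgeR) and 6.86 ± 0.57 later (adjusted p = 1.38e-07, edgeR), and the change between passages also passed (3.70 ± 0.80, adjusted p = 0.0369, edgeR). HOXB6 stood at 11.7 CPM (6 counts) and 261 CPM (43 counts) against 0 to 1.36 CPM, and at most 10.4 CPM elsewhere in the series. Of the 19 members, 5 lay above all follicle libraries in both interfollicular ones, beside 9.99% of all genes. In the later class 3 were higher, beside 7.7% of all genes. HOXA7 and HOXC6 lay above the follicle range in the later library only. HOXA7 was at 7.77 and 18.2 CPM against 3.49 to 14.1 CPM, and HOXC6 at 7.77 and 30.3 CPM against 10.4 to 18.0 CPM.

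EBF1, TAB2 and TUBA8 were called in both passage classes, and SPP1 in the early class. EBF1, a transcription factor best known from B cell development, stood at 311 CPM early and 346 CPM later. Follicle libraries held 19.7, 60.4 and 18.9 CPM early and 46.1 and 40.3 CPM later. It was called early (3.25 ± 0.61, adjusted p = 0.00945, edgeR) and later (3.00 ± 0.72, adjusted p = 0.00734, edgeR), with a change between passages of -0.25 ± 0.98 (adjusted p = 0.986, edgeR). TAB2, an adaptor of the TAK1 kinase, stood at 169 and 522 CPM against 12.6 to 22.4 CPM (early 3.22 ± 0.47, adjusted p = 0.000856, edgeR). TUBA8, an alpha-tubulin, stood at 75.8 CPM (39 counts) and 121 CPM (20 counts) against 0 to 0.69 CPM (early 6.63 ± 0.70, adjusted p = 6.95e-05, edgeR). No other library of the series exceeded 103 CPM for EBF1, 48.6 CPM for TAB2 or 12.2 CPM for TUBA8. SPP1, the secreted matrix protein osteopontin, differed by passage. It stood at 550 CPM (283 counts) in the early and 12.1 CPM (2 counts) in the later interfollicular library, against 0.69 to 5.95 CPM in follicle organoids. Its early difference was 8.49 ± 0.72 (adjusted p = 5.54e-07, edgeR) and its later one 1.37 ± 1.65 (adjusted p = 0.745, edgeR).

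KLF4, HOXA5, EBF1, TAB2 and TUBA8 kept their pooled call under each of the 20 settings, also without either interfollicular library. Their largest adjusted p among these settings was 0.0394, 0.00718, 0.0112, 0.00102 and 0.000227, in that order.

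**Figure D3:**
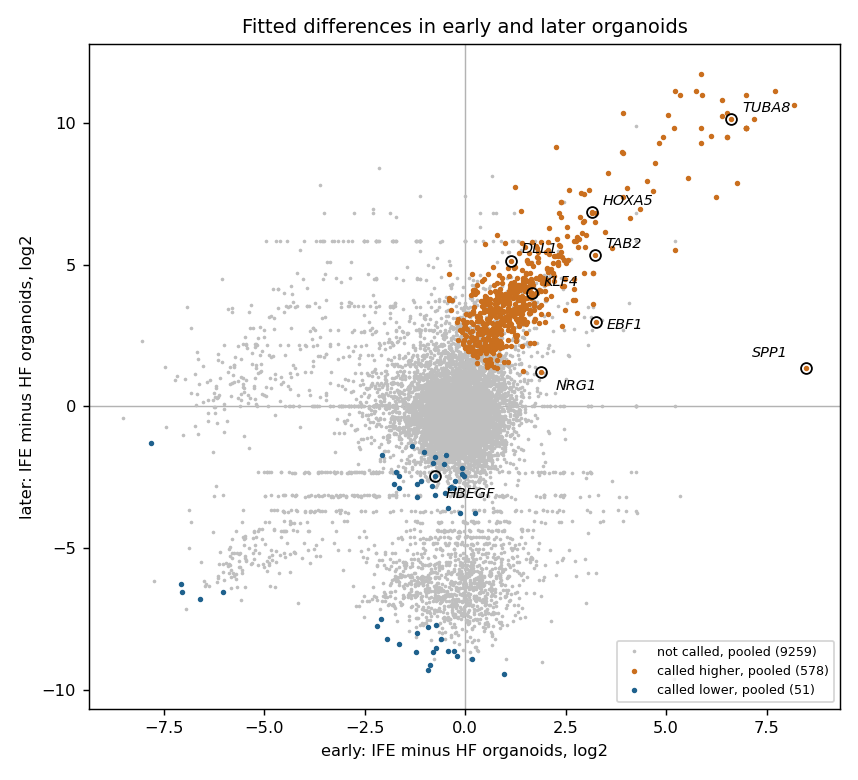
Fitted log2 difference of interfollicular minus follicle organoids, early (horizontal axis) and later (vertical axis), for 9888 genes (points). Genes called higher (578) or lower (51) in the pooled test are coloured. The genes called higher have a median of 1.09 early and 3.56 later. NRG1, EBF1 and SPP1 are labelled genes whose early difference is the larger one.

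Within the early class 60 genes (0.607%) were higher and 0 (0%) were lower by edgeR's test. At an unadjusted p under 0.05 there were 673 genes in either direction, DESeq2 called 89 higher and 0 lower, and limma voom called 99 higher and 4 lower. Of the 60, 35 had provisional locus names and 18 were pseudogenes, and with both classes of entry left out before scaling 14 genes were higher. With the libraries thinned to the same depth 15 were. UPK1B and C9H17orf64 were called here on an early excess that the later class did not show. UPK1B, a uroplakin, was at 56.3 CPM early and 12.1 CPM later, and follicle organoids themselves held 0.581 to 10.2 CPM early and 59.5 and 91.7 CPM later. C9H17orf64 was at 75.8 CPM early and 6.07 CPM later (1 count), against 13.6 to 15.7 CPM early and 76.6 and 132 CPM later in follicle organoids. For both, follicle organoids held more later than early while the interfollicular library held less. The early call of UPK1B was lost under 11 of 18 settings and that of C9H17orf64 under 8 of 18, among them leaving out early follicle replicates 2 or 3.

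Within the later class 761 genes (7.7%) were higher and 56 (0.566%) were lower. For these 761 the early excess over follicle organoids, in CPM, had a median of 8.6% of the later excess, with quartiles of 2.9 and 13.6%, and 621 had a positive early difference, against 4084 of all 9888. Among the largest pooled rises were near-identical H2A histone genes. H2AC15, H2AC17, HIST3H2A and H2AC11 held the same values, 13.6 CPM early and 97.1 CPM later (7 and 16 counts), and 0 in all 5 follicle libraries. They entered the test only through the interfollicular libraries, being at 0 to 0.285 CPM in the other 21, so their values are a description and their calls support nothing. Reads from such copies cannot be assigned to 1 gene, so they count as 1 observation, at least 34.2-fold higher early and 75.6-fold later by the limit of 3 counts over the group. NAT8L, which makes N-acetylaspartate, TUBB3, a neuronal tubulin, MAP1B, a microtubule-associated protein, and NFIX and DACH1, both transcription factors, were also among the 15 largest pooled rises. They stood at 5.83 to 17.5 CPM early and 60.7 to 164 CPM later, against 0 to 1.84 CPM in follicle organoids. CAPZB, an actin capping subunit, was at 11.7 and 230 CPM against 0.581 to 1.49 CPM. CAPZB and TUBB3 were likewise not tested without the later library. The early values of these 6 genes rest on 3 to 9 counts.

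The later interfollicular library held no counts for many of the genes called lower. Of 51, 22 had 0 counts there, against 1801 of all 9888 genes, and 48 had a negative early difference, against 5745 of all 9888. Both traits enter the pooled difference, so being called lower already favours them. RHBDF1, an inactive rhomboid that acts in the trafficking of EGF family ligand sheddase, was at 48.6 CPM early and 0 later, against 63.9 to 127 CPM early and 50.4 and 68.4 CPM later in follicle organoids. By the limit of 3 counts, its later level was at least 3.26-fold lower than the later follicle mean. GOPC, a Golgi scaffold protein, was at 5.83 CPM early and 0 later against 19.1 to 31.1 CPM. PTGS2, the inducible cyclooxygenase, was at 29.1 CPM and 0 against 20.1 to 64.5 CPM (pooled adjusted p = 0.0377, edgeR, lost under 9 of 20 settings), and its early value lay inside the range of all 5. In the early class 0 of all 9888 genes were called lower, and so 0 of these 51.

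The passage difference, the later minus the early origin difference, was called for 114 genes, 108 (1.09%) more positive and 6 (0.0607%) more negative later. WNK1, a kinase that controls ion transport, is an example. It was at 83.5 CPM early and 400 CPM later in interfollicular organoids, against 69.1 to 105 CPM early and 58.4 and 59.5 CPM later in follicle organoids (change 2.80 ± 0.64, adjusted p = 0.0407, edgeR). LHX2, a homeobox factor of hair follicle stem cells, was at 0 early and 60.7 CPM later (10 counts), against 2.02 to 8.75 CPM. The count of 114 was 0 when only the 7 libraries were fitted (1421 genes at an unadjusted p under 0.05), 3 at equal depth and 1 without follicle later replicate 2.

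Hair shaft and inner root sheath genes were higher in interfollicular than in follicle organoids in the pooled test, the opposite of tissue. Of 34 tested members, 18 were higher and 0 lower pooled, 0 early and 24 later, beside 5.85%, 0.607% and 7.7% of all genes higher. In tissue 27 of the 34 were lower in interfollicular epidermis, beside 2.05% of all genes. The median log2 difference was 0.81 early, 3.82 later and -3.74 in tissue. KRT32, a hair cuticle keratin, stood at 50.5 CPM early and 218 CPM later. Follicle organoids held 11.5, 14.5 and 14.5 CPM early and 20.1 and 16.1 CPM later. Hair follicle tissue held 1303 and 1812 CPM, so every organoid library was far below it. KRT85, a keratin of the hair matrix and cortex, stood at 19.4 and 152 CPM against 5.04 to 16.9 CPM, and KRTAP26-1, a keratin-associated protein, at 27.2 and 237 CPM against 9.66 to 17.1 CPM. Without the later interfollicular library none of the 34 was called and the median was 0.82. Hair keratins and keratin-associated proteins are families of close copies, so their separate values are uncertain.

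Some genes of other skin cell types stood higher in the same library. Of 21 tested fibroblast and dermal papilla genes 3 were higher pooled (COL1A1, COL1A2 and DCN) and 6 later, beside 5.85% and 7.7% of all genes, shares that apply to each list here. Those 3 calls were lost without the later interfollicular library. DCN, the matrix proteoglycan decorin, was at 35.0 and 243 CPM against 13.1 to 25.8 CPM, and COL1A1 at 27.2 and 152 CPM against 8.18 to 27.3 CPM. LUM and PDGFRA, 2 defining fibroblast markers, were at 0 in the later interfollicular library. Of 7 smooth muscle genes 1 was higher pooled and 3 later. MYH11, smooth muscle myosin, was at 1.94 CPM early and 91.0 CPM later against 1.01 to 7.46 CPM, while DES was at 0 in all 7 libraries. Of 8 immune genes 0 were called pooled and 2 later, CD74 at 72.8 CPM against 2.02 to 10.8 CPM and DLA-DRA at 12.1 CPM (2 counts), and PTPRC was at 0 in all 7. Of 7 adipocyte genes 0 were called pooled and 2 later, with a later median of 3.71. These were ADIPOQ, the hormone adiponectin, at 60.7 CPM (10 counts) and CIDEC, a lipid droplet protein, at 24.3 CPM (4 counts). The summed level of the adipocyte list was not raised. It was 340 CPM in the later interfollicular library, inside the follicle range of 78.1 to 362 CPM, and 73.8 CPM in the early one. Of 3 Merkel and Schwann genes 0 were called pooled and 1 later. Melanocyte, endothelial and simple epithelial lists had 0 called pooled and 0 later. The melanocyte list still summed to 78.9 CPM in the later interfollicular library, 27.2 CPM in the early one and 8.1 to 21.2 CPM in the follicle ones. Later endothelial and simple epithelial sums, 18.2 and 139.5 CPM, lay inside follicle ranges of 6.2 to 21.7 and 35.7 to 383 CPM. Follicle early replicate 1 alone set the upper end of both ranges. The other follicle libraries held 6.2 to 14.1 and 35.7 to 52.4 CPM, below the later interfollicular sums. The early simple epithelial sum was 83.5 CPM. The summed level of the hair list was 8548 CPM in the later interfollicular library, 1369 CPM in the early one and 529 to 784 CPM in the follicle ones. For the fibroblast list it was 1310, 427 and 339 to 623 CPM, and for the smooth muscle list 425, 58.3 and 41.3 to 81.6 CPM. The part that RNA of these cell types has in the other later differences was not tested.

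**Figure D4:**
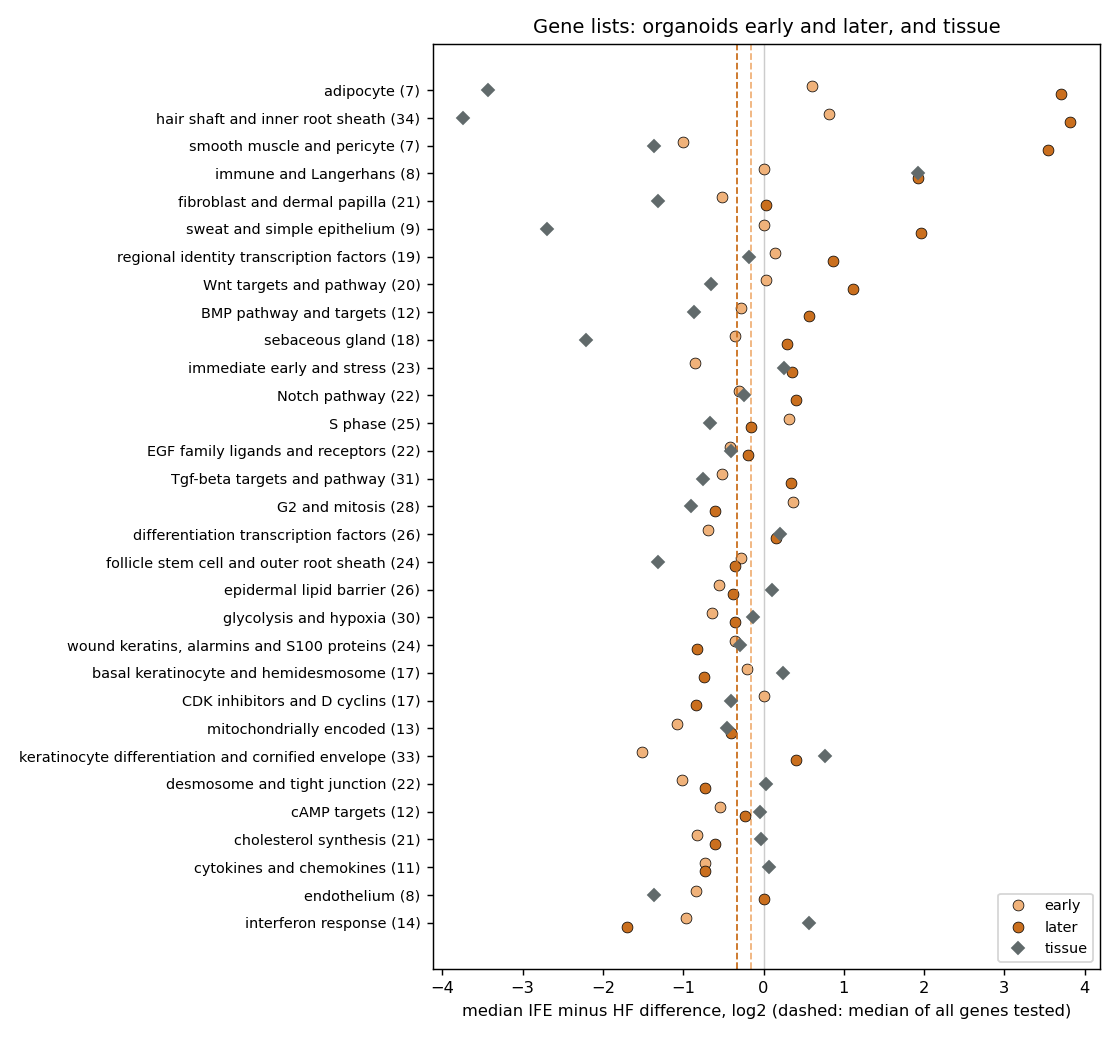
Median log2 difference of interfollicular minus follicle samples (horizontal axis) for each gene list with at least 7 tested genes (number in brackets), in early organoids, later organoids and tissue. Dashed lines mark the medians of all genes tested, -0.16 early and -0.33 later. The hair list stands at 0.81 early, 3.82 later and -3.74 in tissue, while the cholesterol list lies below the dashed lines in both organoid classes.

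The tissue comparison called 73 genes (0.738%) higher in interfollicular epidermis and 203 (2.05%) higher in hair follicles. Of the 203 follicle genes, 66 were called higher in interfollicular organoids in the pooled test and 0 lower, with 0 called early and 87 higher and 1 lower later. Of all genes 5.85% were higher pooled and 7.7% later. Their median log2 difference in organoids was 1.57 pooled, 0.37 early and 3.21 later. The median gene among the 203 stood at 1.54 to 2.09% of its follicle tissue level in the 5 follicle organoid libraries, at 3.36% in the early interfollicular library and at 17.7% in the later one. Of the 73 interfollicular genes, 5 were higher and 2 lower in interfollicular organoids, with a median of -0.17. The share called higher is near the 5.85% of all genes, and 0.516% of all genes were lower. Their median level was 9.86 to 15.6% of interfollicular tissue across all 7 organoid libraries, and both interfollicular values, 9.86 and 13.4%, lay within or just below the follicle range of 11.1 to 15.6%. Leaving out single tissue libraries gave 113 to 170 tissue calls, against 276 with all 4.

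**Figure D5:**
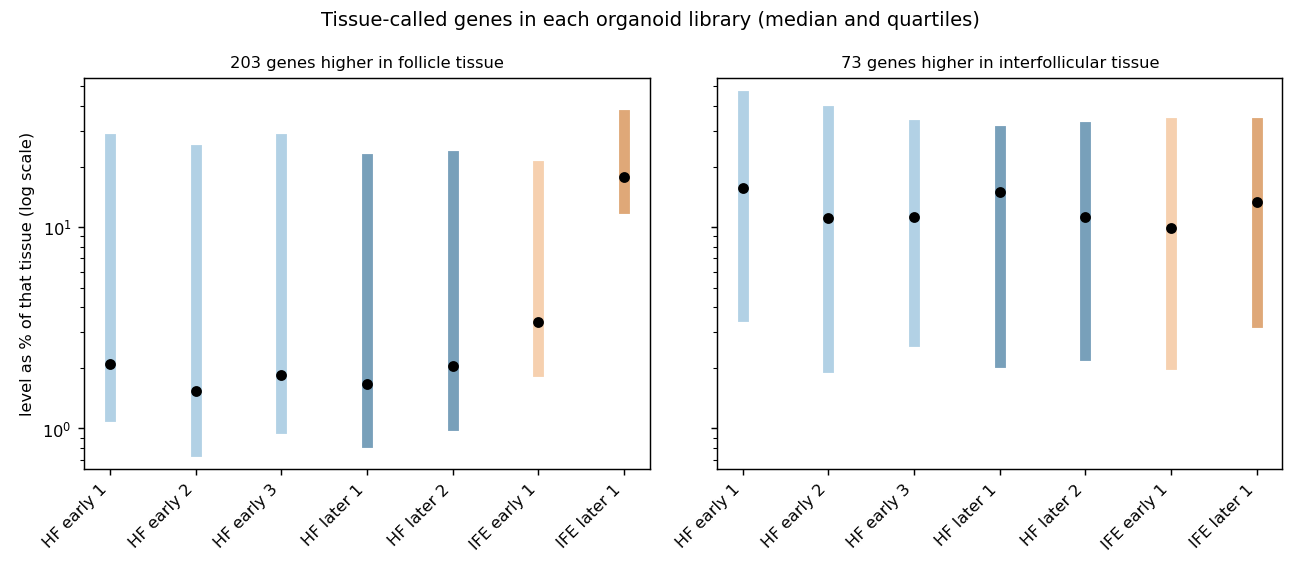
Level of the tissue-called genes in each organoid library with inhibitor as a percent of the mean tissue level (log axis), with medians as points and quartiles as bars. For the 203 follicle genes the later interfollicular library has a median of 17.7%, against 1.54 to 3.36% in the other 6. For the 73 interfollicular genes the 7 medians lie between 9.86 and 15.6%.

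The 5 genes higher in interfollicular samples in both tissue and organoids were KLF4, WNK1, SRPK2, HLA-DRB1 and AOX4. SRPK2, a splicing kinase, was at 99.1 and 340 CPM against 66.2 to 109 CPM in follicle organoids. HLA-DRB1, an antigen-presenting class II chain, was at 7.77 and 42.5 CPM (4 and 7 counts) against 1.36 to 4.07 CPM. AOX4, an aldehyde oxidase, had 2 counts in each interfollicular library. Of the 5, KLF4 alone had an early difference past the threshold, and the pooled calls of the other 4 were lost without the later interfollicular library. UBASH3B and DAAM1 went the other way, with pooled calls lost under 7 and 9 of 20 settings, among them leaving out either interfollicular library. UBASH3B, a tyrosine phosphatase, was at 68.1 and 46.7 CPM in interfollicular tissue against 5.29 and 8.87 CPM in follicles. In organoids it was at 13.6 and 18.2 CPM (7 and 3 counts) against 45.9 to 69.9 CPM (log2 -1.89 ± 0.52, adjusted p = 0.0265, edgeR). DAAM1, a formin downstream of Wnt receptors, was at 15.5 and 6.07 CPM (8 counts and 1 count) against 33.2 to 53.4 CPM (log2 -2.05 ± 0.57, adjusted p = 0.0309, edgeR), and in tissue at 360 and 195 CPM against 89.9 and 88.7 CPM.

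Of 20 tested Wnt genes 2 were higher pooled and 6 later, beside 5.85% and 7.7% of all genes, shares that apply to each list here. The pooled ones were CTNNB1 (beta-catenin, 122 and 619 CPM against 63.5 to 71.5 CPM) and APCDD1 (a Wnt inhibitor, 11.7 and 42.5 CPM against 2.02 to 8.06 CPM). Neither was called early. The pooled calls of CTNNB1, APCDD1, CXCL14, IER5 and HSPA5 were each lost without the later interfollicular library. BMP genes had 0 of 12 called, and BMP7, a ligand, was at 66.0 and 54.6 CPM against 111 to 150 CPM (log2 -1.17 ± 0.42, adjusted p = 0.124, edgeR). CXCL14, an epithelial chemokine, was higher at 173 and 783 CPM against 53.5 to 117 CPM (log2 2.39 ± 0.54, adjusted p = 0.00623, edgeR), and was not called early. Of 23 immediate early and stress genes 2 were higher pooled and 7 later, the pooled ones being IER5 at 109 and 497 CPM against 25.3 to 52.9 CPM and HSPA5, an endoplasmic reticulum chaperone, at 651 and 1984 CPM against 474 to 644 CPM. Of 31 Tgf-beta targets 2 were higher, COL1A1 and ACTA2, which the fibroblast and smooth muscle lists also hold. Interferon response genes had 0 of 14 called.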

How the data were processed

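The values from 23 dog libraries are the expected counts per gene that the authors deposited, with no normalization stated. They are taken as estimated counts since 4.91 to 10.65% of a library's lines hold a fraction, per the file values, and were rounded. BWA 0.6.2-r126 and CanFam3.1 are named per the submitters' processing notes. The annotation, the counting tool and the treatment of molecular barcodes are not stated in the labels or files used. Without strand or molecule information, overlapping genes and close copies are uncertain. Of all entries, 4 named no gene and were left out, and 20 carried symbols turned into dates.

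edgeR 4.0.16 (R 4.3.3) fitted 1 mean for each of 12 groups after its default low-count filter (9888 genes), with TMM scaling, 11 residual degrees of freedom and a common dispersion of 0.0986. Genes were called at a Benjamini-Hochberg adjusted p under 0.05 over all genes tested. The SE is the log2 difference divided by the square root of F. Since interfollicular organoid groups have 1 library each, their p-values assume that they vary like the replicated groups. CPM are scaled by TMM. Alternatives used DESeq2 1.42.0, limma 3.58.1, other scalings and filters, fewer libraries and equal depth. Intervals on counts are exact Poisson intervals and cover counting error only.

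The markers, comparisons and gene lists were chosen with earlier results of these data known. Named genes are KLF4, DLL1 and HBEGF, a fixed keratinocyte and follicle set, and the largest called differences in each direction. These are the 15 largest pooled and the 5 largest within each passage class, with a symbol, non-overlapping origins and a mean of 20 CPM or more in the higher origin. The 5 largest between classes have a symbol and a largest group mean of 20 CPM or more, and their origins may overlap. Also named are up to 3 called genes per list in each direction or 2 where none was, and up to 8 genes in each direction called in both tissue and organoids. Other list members named (such as KLF5, FDPS, SREBF2, DSG1, HOXA7, HOXC6 and the cell type markers) were chosen after their values were seen or as fixed markers. One item is not reported here.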

Additional observations from a re-analysis of the deposited data

Results flagged for a closer look

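The origin difference changed between early and later organoids for 114 genes by edgeR's interaction contrast at an adjusted p under 0.05. The named genes among them had changes, later minus early on the log2 scale, of 6.22 for FBRS, 6.34 for MYH11, 10.56 for LHX2, 3.70 for HOXA5, 2.80 for WNK1, 5.44 for ACVR1B and 5.72 for JUN. Negative changes were -10.41 for TMA16, -6.46 for C9H17orf64, -4.34 for RGS2, -7.12 for SPP1 and -14.81 for KRT4. LHX2 in the early library and TMA16 and KRT4 in the later one had 0 counts, so their fitted sizes are no measure of fold. TMA16, a ribosome-associated protein gene, was at 107 CPM early and 0 later, by the limit of 3 counts at least 4.11-fold below the later follicle mean. KRT4, a mucosal keratin, was at 29.1 CPM early, 0 later, 0.461 to 1.36 CPM in early and 7.43 and 162 CPM in later follicle organoids. RGS2, which is induced by cAMP, was at 289 CPM early and 42.5 CPM later, against 73.9 to 176 CPM early and 386 and 396 CPM later in follicle organoids. FBRS was at 3.88 and 146 CPM, ACVR1B at 1.94 and 48.5 CPM, and JUN at 5.83 and 91.0 CPM. None of these 12 calls held under all alternatives.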

How the results depend on the processing

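No paired analysis was possible because the interfollicular organoid groups hold only replicate number 1. The later count of 817 stayed within 1.5 times under every setting run. The pooled count of 629 calls lay within 1.5 times under all but 1 setting. The 51 lower calls among these 629 were less stable. They numbered 9 with DESeq2, 16 at equal depth, 22 with DESeq2 size factors and 24 without follicle early replicate 3. Larger numbers came with limma voom (56), without a filter (59), and with the 11 expansion (60) or 17 tissue and expansion libraries (95). Leaving out single libraries gave 54 to 818 pooled calls (54 without the later interfollicular library), 30 to 63 early calls (30 without follicle early replicate 3), 622 to 837 later calls and 113 to 170 tissue calls. The change between passages gave 1 to 126 calls, with 8 without follicle early replicate 3, 35 without replicate 2, and 19 and 1 without later replicates 1 and 2. The early count of 60 was 36 with the 7 libraries alone, 15 at equal depth, 108 with library totals, 103 with limma voom, 131 without a filter and 14 without provisional loci and pseudogenes (chosen after seeing the data). The count of 114 for the change between passages was 189 with the 11 expansion libraries, 213 with 17, 0 with 7, 335 with DESeq2, 188 with its size factors, 66 with a filter of 10 counts, 3 at equal depth, 4 with library totals, 70 without mitochondrially encoded genes and 29 without provisional loci and pseudogenes. With library totals the later split was 672 higher and 151 lower, and the tissue split 143 higher and 146 lower. Tissue gave 478 calls without a filter. Of the 203 follicle tissue genes, 66 were called higher in organoids, with 0 to 87 when either interfollicular library was left out (0 without the later one). Genes with both interfollicular libraries below all follicle ones numbered 1295, 844 with library totals and 512 at equal depth. The median of all pooled differences, -0.32, was -0.14 with DESeq2 size factors and -0.01 with limma voom, so small negative medians are relative to this shift. Of 125 named genes, 30 had pooled log2 differences of opposite sign without the later and without the early interfollicular library. For the 6 of them whose sign turned against the pooled value with a call in either fit, the differences were -2.80 and 2.65 for ACVR1B, 2.39 and -4.07 for C9H17orf64, 0.17 and -8.96 for COPS3, -6.10 and 4.53 for LHX2, 0.97 and -9.49 for TMA16, and -0.03 and 2.77 for WNK1. The cause of each move was not tested, beyond the fewer samples or genes that a setting leaves.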
